A study of Mus musculus with 15 samples.

Results

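The T-cell receptor complex and its proximal signalling apparatus were followed through 9 genes, Cd3e, Cd3d, Cd3g, Cd247, Cd4, Lck, Zap70, Lat and Cd28, chosen by name from the 48709 genes of the deposited count table. Islets of Langerhans, the endocrine cell clusters of the pancreas, were isolated from untreated NOD/ShiLtj (NOD) females, an inbred strain in which autoimmune diabetes arises spontaneously. There were 15 mice, 3 each at 4, 6, 8, 10 and 12 weeks of age, all of the same strain, sex and tissue, with no other strain and no treated group. Collagenase digestion and a density gradient preceded hand-picking, so endocrine cells and any attached or infiltrating cells were sequenced together. All 9 genes had enough counts to be tested, and 16554 genes were tested in all.

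A T cell recognizes antigen through the variable chains of its receptor, which carry no signal themselves. The signal passes through the CD3 chains and the zeta chain (encoded by Cd247), whose cytoplasmic tails are phosphorylated by the kinase Lck. Zap70 then docks on these tails and phosphorylates the adaptor Lat, a scaffold for downstream enzymes. The co-receptor Cd4 brings Lck to the complex when the antigen is presented by MHC class II, and Cd28 gives the co-stimulatory signal. T cells infiltrate the islets of NOD mice during insulitis, and both CD4+ and CD8+ T cells are known to take part in the loss of beta cells. Several of these genes are not exclusive to T cells, since NK cells also express Cd247, Zap70, Lck and Lat, mast cells and platelets express Lat, and some myeloid cells express Cd4.

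The 3 CD3 genes lie together on chromosome 9 (GRCm38), within 40019 bp: Cd3g at 44969572 to 44980431 on the minus strand, Cd3d at 44981793 to 44987052 on the plus strand and Cd3e at 44998743 to 45009590 on the minus strand. Cd3g and Cd3d are transcribed away from each other, from starts 1362 bp apart. The other members are dispersed: Cd28 (60716800 to 60773359), Zap70 (36761798 to 36782818) and Cd247 (165788681 to 165877277) on chromosome 1, Lck (129548344 to 129573641) on chromosome 4, Cd4 (124864692 to 124888221) on chromosome 6 and Lat (126363824 to 126369570) on chromosome 7. Cd247 overlaps Pou2f1 on the opposite strand, which had 17499 counts over the 15 mice against 6204 for Cd247, and the sources used here do not say whether reads were counted by strand. Cd247 also overlaps Gm16565 on the same strand, which had 114 counts over the 15 mice. The values of Cd247 are therefore less certain than those of the other 8 genes, whose overlapping neighbours, where they had any, were at 0 counts.

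The promoters of the CD3 genes and the upstream promoter of Lck are shown because these genes changed together in the islets. RefSeq gave 10 promoter windows of 300 bases (250 before the start site and 50 after it, GRCm38.p6) for 7 of the 9 genes (all but Cd4 and Cd28). The 250 bases before the start are printed for Cd3g (chr9:44980432-44980681, minus strand), Cd3d (chr9:44981536-44981785, plus strand), Cd3e (chr9:45009612-45009861, minus strand) and Lck (chr4:129573642-129573891, minus strand). Capitals mark matches on either strand to the letters of Runx factors (TGTGGT, in the Lck promoter), a family that acts in T cells. They also mark those of Gata factors (AGATAA, in the Cd3g promoter). In the Cd3d promoter they mark those of the Tcf and Lef factors (CTTTGA).
Cd3g: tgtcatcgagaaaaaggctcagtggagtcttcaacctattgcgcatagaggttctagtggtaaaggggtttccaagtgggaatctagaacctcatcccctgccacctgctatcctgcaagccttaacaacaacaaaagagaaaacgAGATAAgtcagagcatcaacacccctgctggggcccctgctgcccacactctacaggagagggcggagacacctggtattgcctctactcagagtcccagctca
Cd3d: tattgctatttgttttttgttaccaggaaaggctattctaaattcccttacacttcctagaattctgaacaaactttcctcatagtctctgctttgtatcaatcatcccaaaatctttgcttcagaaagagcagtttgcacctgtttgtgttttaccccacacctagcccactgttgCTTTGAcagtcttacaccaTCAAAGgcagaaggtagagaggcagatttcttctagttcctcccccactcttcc
Cd3e: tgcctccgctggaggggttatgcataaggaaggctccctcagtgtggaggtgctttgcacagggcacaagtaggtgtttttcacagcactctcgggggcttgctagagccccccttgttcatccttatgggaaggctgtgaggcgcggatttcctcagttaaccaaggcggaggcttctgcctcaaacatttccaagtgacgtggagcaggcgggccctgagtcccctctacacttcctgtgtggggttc
Lck: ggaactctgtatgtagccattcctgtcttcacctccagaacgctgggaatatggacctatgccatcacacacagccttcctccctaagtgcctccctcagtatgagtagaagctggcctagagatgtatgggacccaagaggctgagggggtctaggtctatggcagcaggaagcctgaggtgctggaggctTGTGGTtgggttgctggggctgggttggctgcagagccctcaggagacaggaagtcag

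None of the 10 windows held the TATA box letters TATAAA, which were present on either strand in 13.6% of the 32851 RefSeq windows. The E box letters CANNTG were in 10 of 10 windows (72.3% of all windows) and the Ets core GGAA in 9 (96.0%). The Runx letters were in 3 windows (16.8%), those of the upstream start site of Lck alone, of Lat and of 1 of the 3 start sites of Zap70. The Tcf and Lef letters were also in 3 (16%), with 2 matches in the Cd3d window, and the Gata letters were in that of Cd3g alone (11.2%). These matches are letters in a window and do not show binding.

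The libraries held 25407492 to 41616275 counts each, a depth at which 3 counts, taken as the limit of what a count of 0 allows, are 0.0753 to 0.128 CPM (counts scaled to library size). Endocrine markers, with insulin among them, summed to 304000 to 337000 CPM at 4 weeks and to 148000 to 188000 at 12 weeks, so islet cells were present in every library. A pair of libraries, 6-week replicate 2 and 12-week replicate 1, held intestinal transcripts (257 and 1335 counts of Fabp2, against 0 to 2 in the others), and results that rest on them are given with and without them. Of 5 thymus markers, Rag1 and Rag2 had 0 to 2 counts per mouse and Ptcra 0 to 10, while Dntt and Cd1d1 rose from 4 to 12 weeks, by 4.98 and 1.58 on the log2 scale (adjusted p = 0.00758 and 0.00123 in edgeR).

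The 3 CD3 chains had 1 to 10 counts each in the islets of 3 of the 6 mice of 4 and 6 weeks, 22 to 128 in the other 3, and 427 to 1936 in all mice of 10 and 12 weeks. Cd3e, which encodes the epsilon chain shared by both CD3 dimers, had 110, 9 and 2 counts at 4 weeks, 2, 51 and 127 at 6, 20, 406 and 556 at 8, 1420, 1783 and 601 at 10, and 1207, 1077 and 1610 at 12 weeks. Cd3d, the delta chain, had 69, 4 and 2 counts at 4 weeks, 2, 22 and 70 at 6, 11, 207 and 362 at 8, 957, 1202 and 427 at 10, and 804, 777 and 1270 at 12 weeks. Cd3g, the gamma chain, had 128, 10 and 9 counts at 4 weeks, 1, 43 and 75 at 6, 20, 472 and 585 at 8, 1439, 1869 and 725 at 10, and 1311, 1138 and 1936 at 12 weeks. In each of the 3 genes, 8-week replicate 1 lay within the range of the younger mice while the other two 8-week mice lay above it. Every 10- and 12-week value was above every 8-week value.

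Averaged by age, Cd3e went from 1.52 ± 2.25 CPM at 4 weeks and 2.14 ± 2.56 at 6 weeks to 11.7 ± 9.86 at 8, 38.7 ± 16.6 at 10 and 41.9 ± 7.69 at 12 weeks (mean ± SD, n = 3 mice per age). Cd3d reached 30.6 ± 8.03 CPM and Cd3g 47.1 ± 12.1 CPM at 12 weeks, from 0.941 ± 1.42 and 1.85 ± 2.55 CPM at 4 weeks. On the log2 scale the spread between mice narrowed from an SD of 2.49 for Cd3e at 4 weeks, and 2.56 at 8, to 0.26 at 12 weeks. In bulk islets, a change in the number of T cells and a change in the RNA per T cell cannot be told apart.

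**Figure D1:**
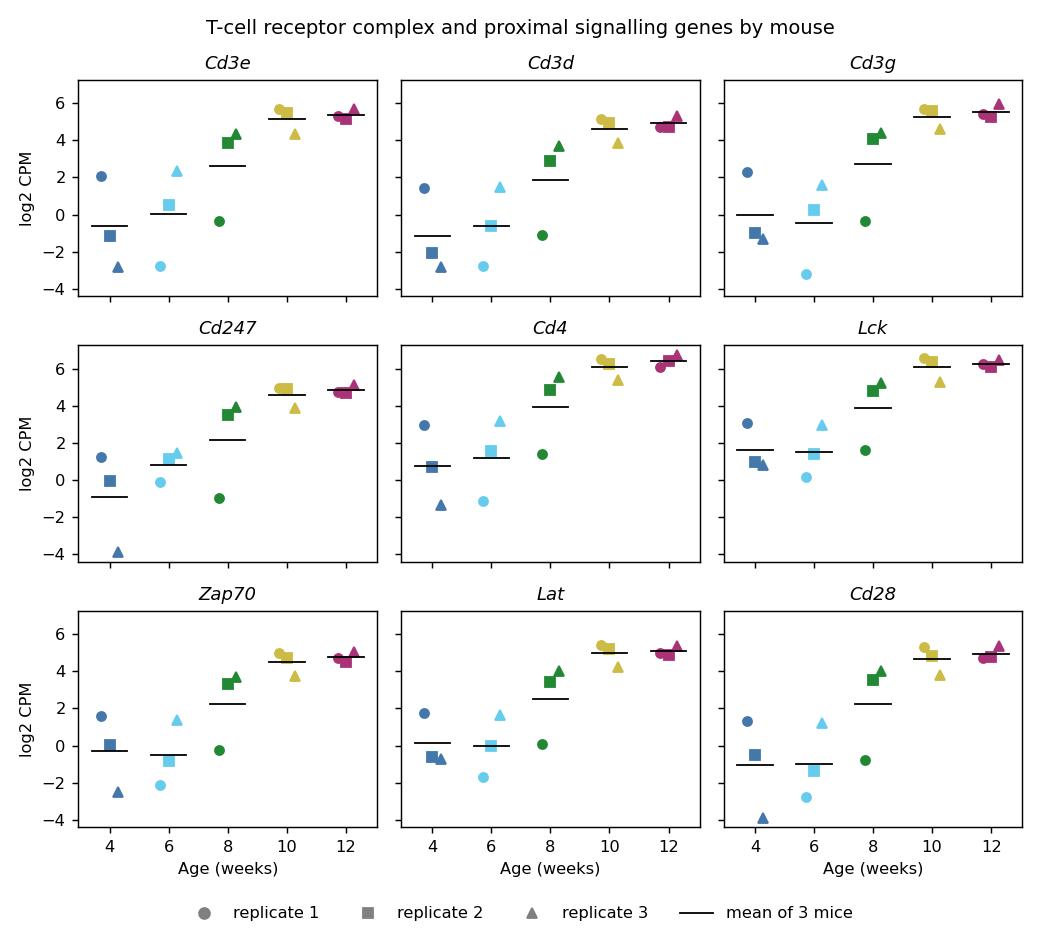
The log2 CPM of each gene (y axis, prior count of 2) against age in weeks (x axis), with 1 point per mouse, its shape giving the replicate number and its colour the age, and a line at the mean of 3 mice. In every panel 8-week replicate 1 sits with the 4- and 6-week mice, and the 12-week points lie close together (for Cd3e an SD of 0.26).

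Cd247, which encodes the zeta chain that carries most of the signalling motifs of the complex, was the least regular of the 4 chains in young mice. It had 62, 21 and 0 counts at 4 weeks, 22, 81 and 68 at 6, 12, 313 and 431 at 8, 851, 1203 and 446 at 10, and 827, 770 and 1097 at 12 weeks. In 6-week replicate 1 it had 22 counts beside 2 of Cd3e. A count of 0, in 4-week replicate 3, allows up to 3 counts.

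The co-receptor Cd4 had 207, 37 and 9 counts at 4 weeks, 10, 110 and 230 at 6, 70, 804 and 1290 at 8, 2556, 3060 and 1273 at 10, and 2136, 2513 and 3371 at 12 weeks. Its mean rose from 3.22 ± 3.97 CPM at 4 weeks to 86.4 ± 18.5 CPM at 12 weeks, and 10-week replicate 3 fell just below the highest 8-week mouse. Cd28, the co-stimulatory receptor, had 65, 15 and 0 counts at 4 weeks, 2, 12 and 57 at 6, 14, 321 and 457 at 8, 1112, 1116 and 426 at 10, and 812, 818 and 1291 at 12 weeks. Here too the 10-week group overlapped the 8-week group through replicate 3.

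The kinases and the adaptor followed the same course. Lck, the kinase that starts the signal, had 227, 45 and 46 counts at 4 weeks, 27, 98 and 200 at 6, 82, 772 and 1053 at 8, 2653, 3317 and 1160 at 10, and 2344, 2033 and 2806 at 12 weeks. Zap70 had 78, 22 and 3 counts at 4 weeks, 4, 19 and 65 at 6, 21, 282 and 368 at 8, 865, 1037 and 406 at 10, and 819, 687 and 1032 at 12 weeks. Lck had 27 counts in its lowest mouse, while Zap70 was at 3 and 4 counts in its lowest mice at 4 and 6 weeks.

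Lat, the adaptor, had 89, 14 and 15 counts at 4 weeks, 6, 35 and 78 at 6, 27, 294 and 453 at 8, 1194, 1477 and 576 at 10, and 977, 885 and 1314 at 12 weeks. Of 5 markers of mast cells and platelets, which also express Lat, Fcer1a and Cpa3 had at most 4 counts in any mouse and were not tested. From 4 to 12 weeks Kit rose by 1.8 on the log2 scale (adjusted p = 0.000928 in edgeR) and Pf4 by 3.16 (adjusted p = 0.000349), while Itga2b did not pass (0.49). The part of these cells in the values of Lat was not tested. In Lck, Zap70 and Lat the lowest 10-week mouse was above the highest 8-week mouse.

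Within an age, the same mice were high or low for the whole group. The summed CPM of the 9 genes was 38.7 in 4-week replicate 1 but 7.56 and 3.11 in the other 4-week mice, and 38.2 in 6-week replicate 3 but 3.01 and 12.4 in the other 6-week mice. At 8 weeks it was 10.1, 138 and 198. At 10 weeks the mice had 472, 403 and 201, and at 12 weeks 364, 357 and 494. The 8-week-old mice thus ran from within the range of the younger mice to just below the lowest 10-week mouse.

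Set against each other per transcript length (TPM, as deposited), the chains of the receptor were not equal in level. At 12 weeks the order of mean TPM was Cd3g (112 ± 36.2), Cd3e (74.0 ± 18.4), Lck (66.8 ± 12.9), Cd3d (58.9 ± 19.5), Cd4 (54.4 ± 15.1), Lat (52.3 ± 13.0), Zap70 (23.1 ± 5.47), Cd247 (13.8 ± 3.19) and Cd28 (13.0 ± 4.2). Among these 12-week values, neighbours from Cd3g to Lat overlapped between mice, as did Cd247 and Cd28. Zap70 lay below Lat, and Cd247 below Zap70, with no overlap between the 3 mice.

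Across ages, Cd247 and Cd28 were the lowest 2 and Zap70 the next lowest at each of the 5 ages by mean TPM. Within mice, the ratio of Cd3g to Cd3e in TPM was 1.44 ± 0.111 at 8 weeks, 1.46 ± 0.138 at 10 and 1.5 ± 0.103 at 12 weeks, and that of Cd247 to Cd3e was 0.193 ± 0.0269, 0.181 ± 0.0193 and 0.187 ± 0.00496. Both ratios thus stayed within a narrow band from 8 to 12 weeks, also in 8-week replicate 1, in which both levels were low.

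The comparison of the oldest with the youngest mice asked how far the T-cell receptor genes change over the course of insulitis. All 9 genes were higher in the 12-week-old than in the 4-week-old NOD mice, by 19.1-fold (Lck) to 32-fold (Cd3d). The log2 fold changes were 4.76 ± 1.24 for Cd3e (± SE), 5.0 ± 1.22 for Cd3d, 4.66 ± 1.15 for Cd3g and 4.75 ± 1.06 for Cd247. Those of the co-receptors were 4.74 ± 1.13 for Cd4 and 4.93 ± 1.21 for Cd28. The kinases and the adaptor gave 4.26 ± 0.91 for Lck, 4.36 ± 1.05 for Zap70 and 4.50 ± 0.97 for Lat. The median of the 9 was 4.74, beside -0.0481 over all genes tested.

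In edgeR's quasi-likelihood test the Benjamini-Hochberg adjusted p of the 9 genes lay between 0.00212 and 0.00648, so 9 of 9 rose, where 26.3% of all genes tested rose by the same rule. At the study's threshold for DEGs (a fold change of at least 1.5 with an unadjusted p under 0.05) 9 of 9 were also higher, against 20.9% of all genes. In 9 of 9 the lowest 12-week mouse was above the highest 4-week mouse, which held for 30.3% of genes. In one test of any change over the 5 ages, 9 of 9 had an adjusted p under 0.05 (0.00199 to 0.00916), as did 56% of all genes.

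The size of the change depended on single 4-week mice. Without 4-week replicate 1, the one with the most T-cell transcripts, the median log2 fold change was 6.55 (5.43 for Lck to 7.97 for Cd3d). Without 4-week replicate 3, which had 0 to 46 counts of each gene, it was 4.15 (3.81 to 4.44). The call itself was kept by 9 of 9 genes whichever mouse was left out. Without both mice with intestinal transcripts the 9 genes had adjusted p values of 0.00748 to 0.0182 in edgeR and a median log2 fold change of 4.81.

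**Figure D2:**
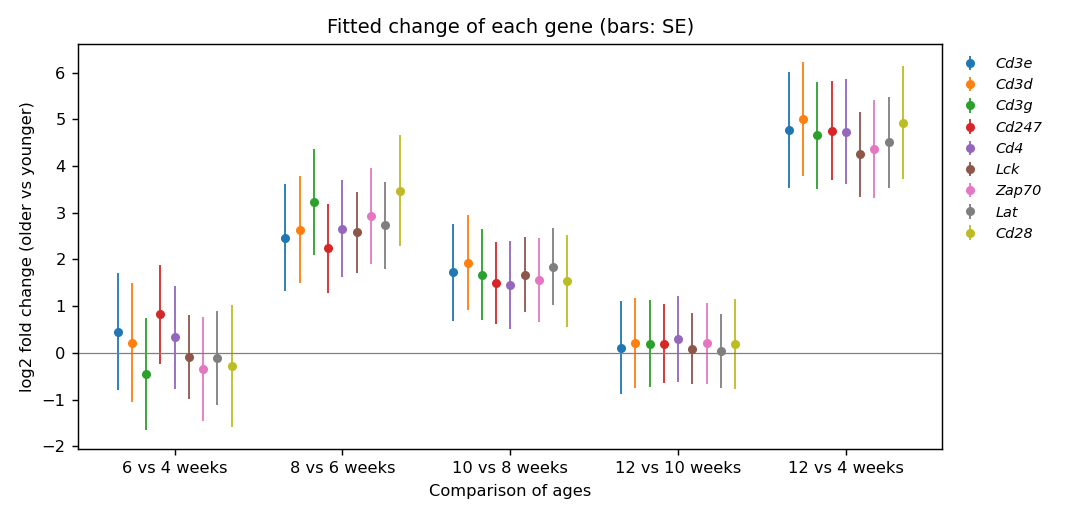
The fitted log2 fold change of each gene (y axis, older against younger age) in each comparison of ages (x axis), with bars of 1 SE. The 9 genes move together: near 0 from 4 to 6 and from 10 to 12 weeks, 2.24 to 3.48 from 6 to 8 weeks, 1.45 to 1.93 from 8 to 10 weeks, and 4.26 to 5.0 over the whole course.

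Between 4 and 6 weeks no change was detectable. The log2 fold changes ran from -0.45 ± 1.21 (Cd3g) to 0.83 ± 1.06 (Cd247), and the groups overlapped in 9 of 9 genes, where 8.34% of all genes were higher and 9.28% lower without overlap. By edgeR's test 0 of 9 had an adjusted p under 0.05 (0.936 to 0.999), and 0 had an unadjusted p under 0.05 (8.67% of all genes). The backgrounds were 0.00604% of all genes higher and 0.0846% lower after adjustment. At the DEG threshold 0 of 9 were higher (1.15% of all genes). The direction turned with single mice: the median log2 fold change was -0.09 in all mice, 1.86 without 4-week replicate 1 and -1.27 without 6-week replicate 3, and for Cd247 the values ran from 0.23 to 2.16 with each mouse left out. DESeq2 and edgeR's exact test also called 0. With SEs near 1 on the log2 scale, changes of a few fold in either direction were not detectable.

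Between 6 and 8 weeks the fitted means were 4.72-fold (Cd247) to 11.1-fold (Cd28) higher, but the mice of the older group did not separate from the younger. The log2 fold changes were 2.47 ± 1.15 for Cd3e, 2.63 ± 1.15 for Cd3d, 3.23 ± 1.13 for Cd3g and 2.24 ± 0.95 for Cd247. Cd4 gave 2.66 ± 1.04, Cd28 3.48 ± 1.19, Lck 2.58 ± 0.87, Zap70 2.93 ± 1.03 and Lat 2.73 ± 0.93. After adjustment over all genes 0 of 9 passed (0.19 to 0.28), and the background was 0%, with 0 also from DESeq2 and the exact test. At the DEG threshold 8 of 9 passed, all but Cd3e (unadjusted p = 0.0516 in edgeR), beside 8.4% of all genes. The 6- and 8-week mice overlapped in 9 of 9 genes, where 7.62% of genes were free of overlap in this direction.

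The 8-week mouse with few T-cell transcripts bore on this step. Without 8-week replicate 1, 6 genes (Cd3g, Cd247, Lck, Zap70, Lat and Cd28) had an adjusted p under 0.05, as did 4.93% of all genes in that fit. The median log2 fold change was then 3.20, and 9 of 9 passed the DEG threshold (11.6% of all genes). Without 8-week replicate 3 only 3 passed that threshold (4.1% of all genes). Without 6-week replicate 1 (5.53% of all genes) or 6-week replicate 2 (4.73%) 4 did. Without 6-week replicate 3 the median log2 fold change was 3.89, and 9 passed (10% of all genes). Leaving out both mice with intestinal transcripts left 0 past the DEG threshold (4.13% of all genes), with a median log2 fold change of 2.44.

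Between 8 and 10 weeks the means were 2.74-fold (Cd4) to 3.81-fold (Cd3d) higher. The log2 fold changes were 1.73 ± 1.04 for Cd3e, 1.93 ± 1.01 for Cd3d, 1.68 ± 0.97 for Cd3g and 1.49 ± 0.88 for Cd247. For Cd4 it was 1.45 ± 0.95, for Cd28 1.54 ± 0.99, for Lck 1.68 ± 0.79, for Zap70 1.56 ± 0.90 and for Lat 1.85 ± 0.83. In edgeR's test 0 of 9 had an adjusted p under 0.05 (0.123 to 0.273), where 8.4% of all genes did in this direction, and DESeq2 and the exact test also gave 0. At the DEG threshold only Lat passed (unadjusted p = 0.0445 in edgeR), against 11.1% of all genes, a share close to that of 1 gene in 9.

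In 6 of the 9 genes (Cd3e, Cd3d, Cd3g, Lck, Zap70 and Lat) every 10-week mouse was above every 8-week mouse, beside 17.2% of all genes, while Cd247, Cd4 and Cd28 overlapped through 10-week replicate 3. The number past the DEG threshold was 0 to 3 with single mice left out, fits whose shares of all genes are not given here. It was 3 without 4-week replicate 1 or 8-week replicate 3, and 2 without 6-week replicate 1, 6-week replicate 3 or 10-week replicate 3. It was 0 without 6-week replicate 2, 8-week replicate 1 or 2, 10-week replicate 1 or 2, or any 12-week mouse, and 0 without both mice with intestinal transcripts. Without 8-week replicate 1 the median log2 fold change of this step was 1.12, and without 8-week replicate 3 it was 2.22.

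Between 10 and 12 weeks no change was detectable in the 9 genes. The log2 fold changes ran from 0.04 ± 0.79 (Lat) to 0.29 ± 0.92 (Cd4), and 0 of 9 passed either rule in edgeR's test (adjusted p 0.976 to 0.997, 0 with an unadjusted p under 0.05, as 7.51% of all genes had). Of all genes 0% passed after adjustment, and 1.61% were past the DEG threshold in the higher direction. DESeq2 and the exact test called 0 as well. The median of 0.20 became -0.08 without 10-week replicate 3 and -0.02 without 12-week replicate 3. The groups overlapped in all 9 genes, where 4.42% of all genes were higher and 5.4% lower without overlap.

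The step from 6 to 8 weeks was fitted as larger than the step from 8 to 10 weeks in each gene, by 0.70 (Cd3d) to 1.93 (Cd28) on the log2 scale. In edgeR's test of that difference 0 of 9 genes had an adjusted p under 0.05 (0.734 to 0.916), and 0 had an unadjusted p under 0.05 (0.295 to 0.699), where 10.5% of all genes did. Without 8-week replicate 3 the direction turned in 6 of the 9 genes, and the difference ran from -0.94 (Cd3d) to 0.62 (Cd28). A difference between the steps was thus not detectable with this spread between mice.

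Ratios within each mouse asked whether the genes kept their proportions to each other as they rose. Log2 ratios to Cd3e were compared over the 5 ages by 100000 permutations of the age labels, with adjustment over the 8 ratios. Cd3g varied (permutation p = 0.00339, adjusted 0.0271), with mean log2 ratios to Cd3e of 0.61 ± 0.76 at 4 weeks, -0.48 ± 0.26 at 6, 0.10 ± 0.11 at 8, 0.12 ± 0.13 at 10 and 0.15 ± 0.10 at 12 weeks. Which ages differed was not tested. The ratio was -0.23 to -0.75 in the 6-week mice and 1.49 in 4-week replicate 3, which had 9 counts of Cd3g and 2 of Cd3e. The other 4-week mice (0.22 and 0.13) lay within the range of the older mice (0.0 to 0.27). Of 15 fits that each left out 1 mouse, only those without 4-week replicate 1 or 2 kept an adjusted p under 0.05, and without both mice with intestinal transcripts 0 ratios passed.

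The other 7 ratios had adjusted permutation p values of 0.585 to 0.818. Their means at 12 weeks were -0.47 ± 0.12 for Cd3d, -0.53 ± 0.04 for Cd247, 1.04 ± 0.20 for Cd4, 0.89 ± 0.08 for Lck, -0.62 ± 0.05 for Zap70, -0.29 ± 0.01 for Lat and -0.43 ± 0.13 for Cd28. At 4 weeks the SDs of these ratios were 0.47 to 1.30. The proportions were thus measured closely in the oldest mice and poorly in the youngest.

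Against Ptprc, which encodes CD45, the phosphatase on all leukocytes that keeps Lck poised for activation, the mean log2 ratio of Cd3e was -4.12 ± 1.0 at 4 weeks and -3.90 ± 1.26 at 6. It was -3.45 ± 0.97 at 8, -3.03 ± 0.17 at 10 and -3.07 ± 0.06 at 12 weeks. The ratio of Lck went from -1.85 ± 0.39 to -2.18 ± 0.08 between 4 and 12 weeks, and that of Cd4 from -2.70 ± 0.74 to -2.03 ± 0.16. Over the 5 ages 0 of 9 ratios to Ptprc had an adjusted permutation p under 0.05 (0.384 to 0.548), and 0 had an unadjusted p under 0.05. Ptprc itself was 4.46 higher on the log2 scale at 12 than at 4 weeks, so a change in the T-cell share of the leukocyte RNA was not detectable against this spread.

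**Figure D3:**
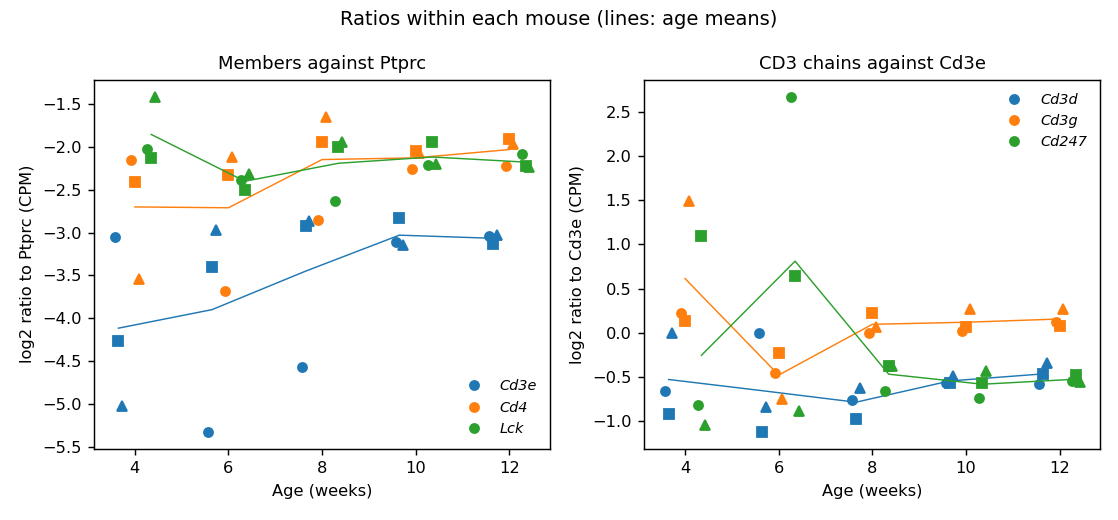
Log2 ratios of CPM within each mouse (y axes) against age in weeks (x axes): Cd3e, Cd4 and Lck to Ptprc on the left, and Cd3d, Cd3g and Cd247 to Cd3e on the right. Points are mice (circle, square and triangle for replicates 1, 2 and 3) and lines join age means. The mice scatter widely at 4 and 6 weeks and lie close together at 12 weeks, where the Cd3e to Ptprc ratio was -3.07 ± 0.06.

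Cd4 was set beside Cd8a, the co-receptor of T cells that recognize MHC class I. The ratio of Cd4 to Cd8a in TPM averaged 4.43 ± 3.22 in the 4-week-old and 4.53 ± 3.9 in the 6-week-old mice. It averaged 2.76 ± 1.3 in the 8-week-old, 1.34 ± 0.174 in the 10-week-old and 1.76 ± 0.316 in the 12-week-old mice. The young values rest on few counts of Cd8a (87, 11 and 1 at 4 weeks, 1, 39 and 103 at 6), and the lowest 4-week ratio (2.15) was just above the highest 12-week ratio (2.04). The lowest 6-week (2.01) and 8-week (1.7) ratios were below that 12-week value, so those ages overlapped. This ratio was not tested. The myeloid markers, which include cells that can express Cd4, summed to 72.8 to 220 CPM at 4 weeks and 1140 to 1290 CPM at 12 weeks, and their part in the Cd4 values was not tested.

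The rest of the pathway was followed in 5 lists of other genes. Of 11 further receptor chains, co-receptors and co-stimulators, 11 rose from 4 to 12 weeks (adjusted p under 0.05, as for 26.3% of all genes), with a median log2 fold change of 4.84. They ranged from 3.85 for Ctla4, the inhibitory receptor that competes with Cd28, to 5.61 for Cd8b1, a chain of the CD8 co-receptor. Of 14 kinases, adaptors and enzymes listed for lymphocytes, 13 rose, with a median of 4.59. At 4 weeks this list summed to 58.8 to 99.1 CPM, beside 1.52 to 28.8 CPM for the 11 receptor genes. Which cells expressed its genes was not tested. The adaptor Skap1 did not pass (-0.19, adjusted p = 0.135 in edgeR).

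Parts of the pathway that most cells express moved less. Of 16 such genes 9 rose and 3 fell, where 26.3% of all genes rose and 27.2% fell, with a median of 0.29, and the 4 others did not pass. Malt1, a protease of lymphocyte signalling, had the largest increase (1.92), with Fyn, a kinase related to Lck, at 1.88 and Nfatc1, a transcription factor activated by calcineurin, at 1.83. Itpr1, the calcium channel of the endoplasmic reticulum, fell by 0.35, Sos1, an exchange factor for Ras, by 0.25 and Ppp3r1, the regulatory subunit of calcineurin, by 0.15. Scaling by library totals alone moved the median of all genes by 0.244, so changes of this size depend on the scaling.

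Of 14 genes listed as negative regulators 14 rose from 4 to 12 weeks, beside 26.3% of all genes, with a median of 2.36. Ptprc, which both restrains and enables Lck, was counted among them (4.46). They ranged from 0.53 for Cblb, a broadly expressed ubiquitin ligase, to 5.68 for Sit1, a transmembrane adaptor of lymphocytes. The 3 ligands of the co-stimulatory receptors, made by antigen-presenting cells, also rose: Cd80 by 4.09, Cd86 by 3.93 and Icosl by 3.59. Cd86 had 98, 20 and 17 counts at 4 weeks and 797, 624 and 1023 at 12 weeks.

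**Figure D4:**
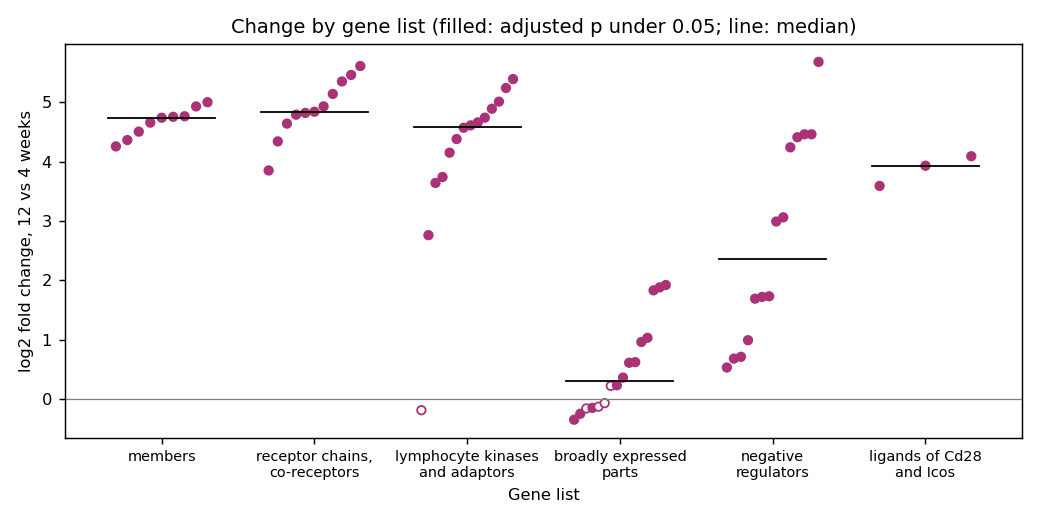
The log2 fold change from 4 to 12 weeks (y axis) of the 9 genes and of the genes of 5 further lists (x axis), ordered by size within each list, with filled points at an adjusted p under 0.05 in edgeR and a line at the median. The medians are 4.74 for the 9 genes, 4.84 for receptor chains and co-receptors, 4.59 for lymphocyte kinases and adaptors, 0.29 for broadly expressed parts, 2.36 for negative regulators and 3.93 for ligands.

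In the steps between ages these lists gave few adjusted calls. From 8 to 10 weeks, where 8.4% of all genes rose, Trat1, an adaptor of the receptor complex, was the single gene called among the 11 receptor genes (2.48 on the log2 scale, adjusted p = 0.0283 in edgeR), and Rasgrp1, an exchange factor for Ras in T cells, the single one among the 14 lymphocyte genes (1.49, adjusted p = 0.0449). In the same step 4 of the 16 broadly expressed genes and 5 of the 14 negative regulators rose. From 6 to 8 weeks 0 genes of the 5 lists were called after adjustment (0% of all genes), while 11 of 11 receptor genes, 12 of 14 lymphocyte genes, 3 of 16 broadly expressed genes, 9 of 14 negative regulators and 2 of 3 ligands were higher past the DEG threshold, as were 8.4% of all genes.

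Markers listed for other leukocytes, and for lymph node stroma and high endothelium, rose over the same course. Of 7 markers of NK and other innate lymphocytes 6 rose from 4 to 12 weeks (median 3.65), where 26.3% of all genes rose. The NK list holds genes that T cells can also express, such as Eomes. Of 6 B-cell markers 6 rose (median 8.25), of 7 myeloid markers 7 (median 2.78). All 5 lymph node stroma and high endothelium markers rose (median 6.82). The summed CPM of the NK list was 51.0 to 59.9 at 4 weeks and 76.6 to 100 at 12 weeks. Most of it at 4 weeks was Rora (50.3 to 54 CPM, and 47.5 to 51.2 at 12 weeks), and the other 6 genes summed to 0.145 to 5.95 CPM at 4 and 28.7 to 49.1 CPM at 12 weeks. That of the B-cell list was 4.56 to 8.59 CPM at 4 and 257 to 401 CPM at 12 weeks, and that of the lymph node list 3.4 to 11.1 and 286 to 511. In contrast, 7 of 8 endocrine markers fell (median -0.87), as did 27.2% of all genes, and 0 of 6 acinar markers passed the test. The part of other leukocytes in the values of Cd247, Zap70, Lck and Lat was not tested. Nor was the part of any attached lymph node tissue in the values of the 9 genes.

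The genes whose pattern over the 15 mice was most like the mean of the 9 genes (Pearson r of log2 CPM) were Ciita (0.9982), Traf1 (0.9981), Irf8 (0.9977), Cd5 (0.997) and Spn (0.9969). In all, 1693 genes outside the 9 had an r of at least 0.9, all values of a mouse come from 1 library, and young and old mice lie far apart in many genes. After the mean of each age was subtracted, Traf1 (0.9978), Cd8b1 (0.9964), Spn (0.9964), Ciita (0.9956) and Ptpn22 (0.9943) were the closest, and 605 genes had an r of at least 0.9. Among all 16553 other genes tested, Cd4 was the 3rd most like Cd3e (r = 0.9968), Cd3d the 10th and Cd3g the 52nd. Cd247 ranked 570th (r = 0.9522), the lowest of the 8.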

How the data were processed

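Islet RNA of 15 NOD females (n = 3 mice per age) was sequenced as read pairs after polyA enrichment. The authors trimmed, aligned and counted reads per gene in CLC Genomics Workbench 23.0 with default settings, and the labels name mm10. The deposited counts are whole reads per gene without normalization. TPM values, scaled by the authors for transcript length and depth, were used as deposited and only to set levels of different genes side by side. Another 30 per-sample columns (RPKM and CPM) were not used. The gene regions matched GENCODE vM21 for 87.7% of genes, though not for Cd3d and Cd3e.

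Genes were filtered with filterByExpr, scaled by TMM (factors 0.905 to 1.14) and fitted with edgeR 4.0.16 in R 4.3.3 by glmQLFit, 1 mean per age over all 15 mice, followed by glmQLFTest and Benjamini-Hochberg adjustment over 16554 genes. The SE of a log2 fold change was derived from the test, as its absolute value divided by the square root of the quasi-likelihood F statistic. CPM used TMM-scaled totals, and log2 CPM and log2 ratios a prior count of 2. Ratio tests were two-sided permutations of the age labels. Same-age mice differed beyond sampling noise (chi-square per degree of freedom 15.9 to 127). No batch or date was given. Limits from counts cover counting error only.

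The members and lists were chosen with earlier results of these data known. Named were the 9 members, the ends of each list, genes that a result turned on and the 5 genes most like the members. Trat1, Rasgrp1, Fyn, Nfatc1, Sos1 and Ppp3r1 were named after their values were seen. Itgam and Fdcsp were not analysed here. A few genes covered by this rule are left out of the text. Alternatives were DESeq2 1.42.0, its size factors, library totals, no filter, the exact test, the 2 ages alone, a replicate block, a prior count of 0.5 for ratios, and each mouse left out. Leaving out both mice with intestinal transcripts was chosen after seeing the data. The edgeR step was tested on simulated data with the same dispersion for every gene and age. That test does not cover the wide spread of the 9 genes in young mice.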

Additional observations from a re-analysis of the deposited data

How the results depend on the processing

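Precision was limited by the spread between 3 mice and by counts of 0 to 10 in young mice. The rise from 4 to 12 weeks and the change over the 5 ages were called in 9 of 9 genes under each alternative, and 0 ratios to Ptprc varied under any. Of 1035 recomputed values of single genes, 988 kept their direction and side of the threshold, 6 gained a call and 41 changed sign. The 6 gained calls were from 6 to 8 weeks, without 8-week replicate 1. All changes of sign were between 4 and 6 or 10 and 12 weeks. The cause of these changes was not tested.

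With each mouse left out in turn, 0 to 6 genes were called from 6 to 8 weeks (0% to 4.93% of all genes). The DEG threshold was passed by 3 to 9 in this step (4.1% to 11.6% of all genes) and by 0 to 3 from 8 to 10 weeks. In such fits 0 to 1 ratios to Cd3e varied. In a fit of the 2 ages alone the unadjusted p from 6 to 8 weeks was 0.0364 to 0.109 in edgeR's test. Without both mice with intestinal transcripts 0 genes passed the DEG threshold in this step (4.13% of all genes). Shares of all genes in the other fits are not given here. From 8 to 10 weeks edgeR's unadjusted p was 0.0669 to 0.167 with the 2 ages alone and 0.0589 to 0.176 with the replicate block. With no filter on low counts it was 0.0374 to 0.136, and without those mice 0.0682 to 0.192. DESeq2's test gave 0.0591 to 0.257. Without those mice 0 ratios to Cd3e varied, and the log2 fold changes of Lck, Zap70, Lat and Cd28 from 4 to 6 weeks were 0.15, 0.04, 0.14 and 0.18.

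The mice of different ages share only a replicate number. The deviations of same-numbered mice from their age means had correlations of -0.504 to 0.509 over all genes, without 1 direction. From 6 to 8 weeks they were 0.509, -0.118 and 0.489 for replicates 1, 2 and 3. From 4 to 6 weeks they were -0.504, -0.0499 and -0.463. With the replicate block the median log2 fold change was 2.67 from 6 to 8 weeks (unadjusted p 0.0197 to 0.0754 in edgeR). It was 1.79 from 8 to 10 weeks. From 4 to 12 weeks it was 4.59, with adjusted p values of 0.0065 to 0.018 in edgeR. The pairing gave a log2 fold change of 0.00 for Cd3d from 4 to 6 weeks and -0.04 for Lat from 10 to 12 weeks.

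With single mice left out, the log2 fold changes from 4 to 6 weeks ran from -0.97 to 3.25 for Cd3e, -1.38 to 3.18 for Cd3d, -1.51 to 1.86 for Cd3g, -0.88 to 2.14 for Cd4, -1.10 to 1.08 for Lck, -1.90 to 1.05 for Zap70, -1.27 to 1.28 for Lat and -2.23 to 1.48 for Cd28. From 10 to 12 weeks they ran from -0.20 to 0.37 for Cd3e, -0.08 to 0.46 for Cd3d, -0.07 to 0.41 for Cd3g, -0.07 to 0.36 for Cd247, -0.21 to 0.34 for Lck, -0.07 to 0.46 for Zap70, -0.23 to 0.28 for Lat and -0.12 to 0.57 for Cd28.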

Other observations

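Eomes, a transcription factor of NK cells and of cytotoxic T cells, had 10, 1 and 0 counts at 4 weeks, 0, 3 and 14 at 6, 4, 77 and 91 at 8, 433, 409 and 146 at 10, and 339, 189 and 385 at 12 weeks, a log2 fold change of 6.08 from 4 to 12 weeks (adjusted p = 0.00121 in edgeR). Ncr1, an activating receptor of NK cells, had 13, 4 and 0 counts at 4 weeks and 99, 51 and 101 at 12 weeks. The innate lymphocyte gene Rora did not pass (-0.08).

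Dntt, the enzyme that adds bases at receptor gene junctions in immature lymphocytes, had 2, 0 and 0 counts at 4 weeks and 40, 9 and 39 at 12 weeks. The intestinal phosphatase gene Alpi had 461 counts in 6-week replicate 2 and 3623 in 12-week replicate 1, and 0 in the other mice.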
